A study of Mus musculus with 2 samples.

Results

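Proliferating chondrocytes are cartilage cells caught in the act of division. They were picked out of 60748 cells from mouse femur and tibia by their transcripts, counted as unique molecular identifiers (UMIs), so that 1 UMI stands for 1 captured mRNA molecule. A cell was taken when it held 500 to 6000 genes and under 25% mitochondrial UMIs, at least 10 UMIs of Acan, at least 1 UMI each of Col9a1, Col9a2 and Matn3, under 1% of its UMIs from Col10a1, and UMIs of at least 3 of the 6 genes Mki67, Top2a, Birc5, Cdk1, Ube2c and Prc1. The rule found 1670 cells, 648 of 28720 in the Control library and 1022 of 32028 in the Dach1OE library. Cells that met the cartilage part of the rule numbered 3520 and 4757 in the same order. Of these, 2204 and 2701 held no UMI of the 6 cycling genes and are called non-cycling cartilage cells below. The cells were thus chosen by the measured UMIs of these genes, so their own high values are no result.

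In the growth plate, chondrocytes pass from a resting pool to flat columns of dividing cells, leave the cell cycle as prehypertrophic cells, and swell into hypertrophic cells that make type X collagen. Prehypertrophic cells secrete Indian hedgehog, which drives division and raises parathyroid hormone-related protein, and that hormone in turn delays maturation. Exit from the cycle in cartilage is linked to the CDK inhibitor p57, the product of Cdkn1c, and a cell that does divide copies its DNA in S phase with replication genes before it switches on a mitotic programme in G2 and M.

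The study compared 1 library of each of a pair of groups, both from C57BL/6 mice at postnatal day 30, of both sexes, all given tamoxifen. The Control mice carried the conditional overexpression allele alone (Dach1OE +/f), and the Dach1OE mice carried the same allele with the inducible recombinase (Apj CreERT2 - Dach1OE +/f). The driver, also named Aplnr, is used to reach endothelial cells, so a chondrocyte is not the intended target. Each library pooled 2 mice according to the methods, bones were digested after the epiphysis was taken off, and blood cells were removed by a lineage depletion followed by CD45 and CD117 beads. With 1 library per group, any effect of the genotype, of the recombinase itself and of the handling of a library cannot be told apart, and no test or p-value is given. Intervals are 95% and cover counting error only.

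Cartilage markers outside the rule were in place. Col2a1, Comp, Hapln1 and Col11a1 had a UMI in every one of the 648 and 1022 cells, and Sox9, the master transcription factor of cartilage, in 98.3% and 98.5% of them. Since Col2a1 also had a UMI in 72.2% and 80.4% of endothelial cells without Acan (medians of 2595 and 2608 UMIs), the level says more than detection. The source of Col2a1 in those cells was not tested. Col2a1 was 66353 and 69252 CPM in members and 580 and 798 CPM in those endothelial cells. Of the cycling markers, Birc5 was present in 93.7% and 93.9% of cells and Mki67 in 84.6% and 82.9%. Both are genes of the rule, so these shares follow from how the cells were chosen. The cells were deep, with a median of 11369 UMIs in Control and 11156 in Dach1OE, against 10569.5 and 9664 in non-cycling cartilage cells. Levels are given as CPM, a gene's UMIs per 1000000 UMIs of the summed cells. Cells just inside the limit, with 3 cycling genes, numbered 74 and 132 and held 42.2 and 27.0 CPM of Ccnb1, a mitotic cyclin. Cells just outside, with 2 cycling genes, numbered 145 and 227 and held 9.74 and 13.3 CPM. At the Acan limit, 15 cells in each library had 10 to 12 Acan UMIs, and 12 and 17 cycling cells had 7 to 9. Near the Col10a1 limit, 3 and 11 members held 0.5% to 1% of Col10a1, and 4 and 9 cells held 1% to 2%. The libraries shared 1049 cell indexes, of which 1 belonged to a member in both.

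A part of these cells also carried transcripts of another cell type. UMIs of at least 3 markers of a single other type were found in 196 Control members (30.2%) and 304 Dach1OE members (29.7%), against 16.5% and 14% of non-cycling cartilage cells. Endothelial markers marked 75 and 148 members (11.6% and 14.5%, against 10.3% and 7.92% of non-cycling cells), osteoblast or stromal markers 34 and 38, pericyte or smooth muscle markers 17 and 40, and tendon markers 1 and 0. Blood and erythroid genes stood apart. Blood markers were seen in 26 and 30 members (4.01% and 2.94%), against 0.499% and 0.333% of non-cycling cells, and 55.3% and 54.5% of all cartilage cells with them met the cycling rule. At least 3 of 12 erythroid markers such as Klf1 and Hemgn were seen in 74 members (11.4%) and 105 members (10.3%), against 0.0907% and 0.185% of non-cycling cells, and the list summed to 187 and 184 CPM against 8.16 and 9.08 CPM. Of all cartilage cells with such erythroid markers, 87.1% and 83.3% met the cycling rule. Among cartilage cells with fewer than 3 markers of each other type, 16.1% and 18.7% did. The erythroid-marked members held a median of 36 UMIs of Car2 in both libraries, a gene high in red cell precursors, and 14089 and 14205 UMIs in all. Members with fewer than 3 markers of each other type held a median of 0 UMIs of Car2. Acan was 4607 and 4209 CPM in the erythroid-marked members against 7437 and 6341 CPM in the latter. No doublet caller was run. Values without the marked cells, 452 members in Control and 718 in Dach1OE, are therefore given beside or in place of the full set and are called unmarked below. Unmarked cells can still hold fewer than 3 markers of another type. Of the 648 Control members, for example, 365 held no endothelial marker and 75 held at least 3. The erythroid list and this split were chosen after the values were seen.

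Within the unmarked cells, the cell cycle programme followed the number of cycling genes detected. The S phase list (43 genes) summed to 419 CPM in Control cells with none of the 6 genes, to 3038 CPM in cells with 5, and to 2206 CPM in cells with all 6. In Dach1OE the same sums were 438, 3256 and 2113 CPM. The G2/M list, with the rule's own genes taken out, summed to 747 CPM in Control cells with none and 11774 CPM in cells with all 6, and to 729 and 11651 CPM in Dach1OE. The classes count genes that are themselves of G2 and M, and the cells with all 6 were deeper than those with 5 (medians of 12087 and 11320 against 9657.5 and 10325 UMIs), so the order of these sums partly follows from how the classes were made and is given as a description. Most members were far from the limit: 56.2% of unmarked Control members and 58.6% of unmarked Dach1OE members held all 6 genes.

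**Figure D1:**
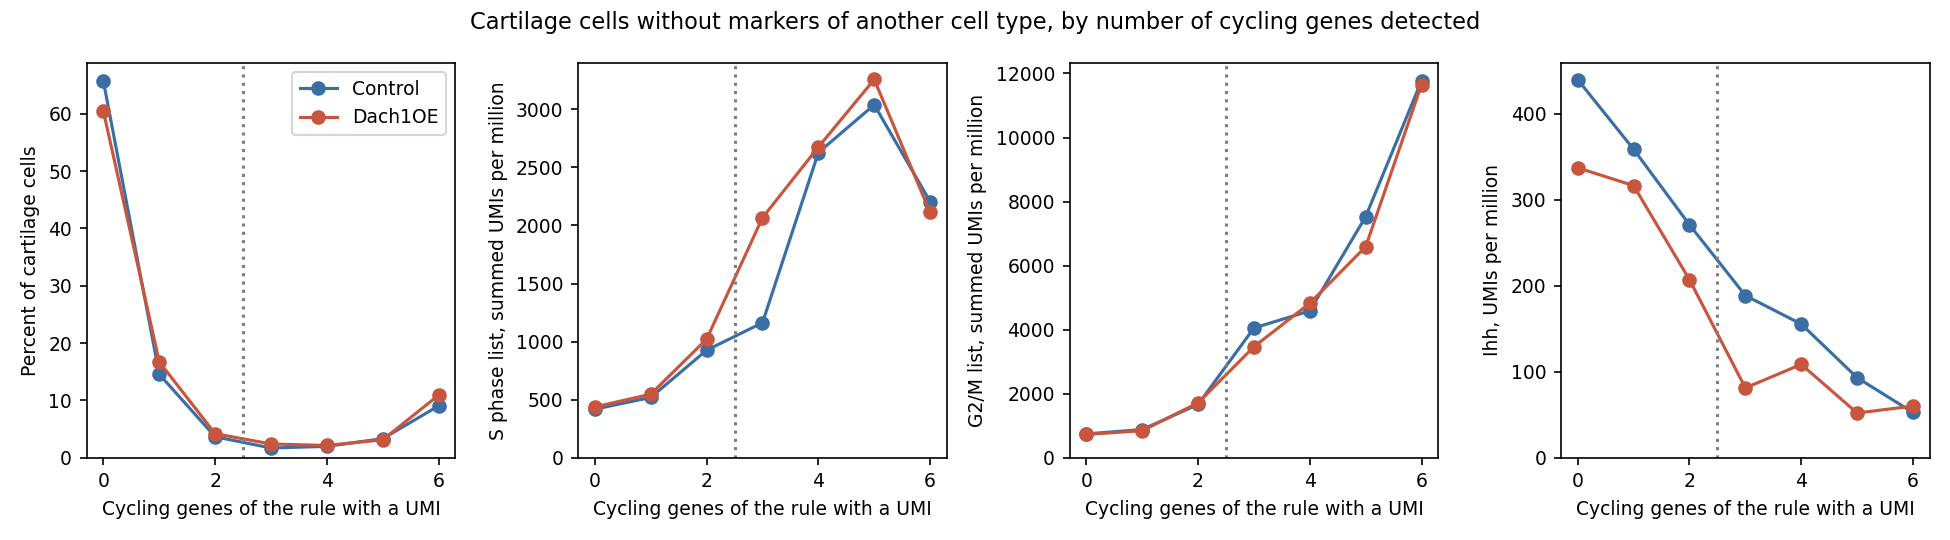
Percent of cartilage cells, summed CPM of the S phase and G2/M lists, and CPM of Ihh (y axes) in unmarked cartilage cells. The x axis is the number of the 6 cycling genes with a UMI, for Control and Dach1OE. The G2/M sum climbed to 11774 and 11651 CPM at 6 genes, the S phase sum peaked at 5 genes, and Ihh fell from 440 and 337 CPM to 52.7 and 60.2 CPM.

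Most of the 6 cycling genes of the rule share letters in their promoters. Many late cell cycle genes are held silent in resting cells by the DREAM complex at the cell cycle genes homology region (CHR, searched as TTTGAA) and are driven by NF-Y at the CCAAT box, while replication genes are known for E2F sites (searched as TTTCGCGC and TTTGGCGC). Each motif was looked for on both strands in windows from 250 bases before to 50 bases after the start site of RefSeq genes (GRCm38.p6). TTTGAA was found in 17.9% of all 32841 windows, in 65.4% of 52 windows of G2/M genes and in 17.6% of 34 windows of S phase genes. CCAAT was found in 37.4% of all windows, in 75.0% of G2/M windows and in 67.6% of S phase windows. The E2F letters were found in 0.813% of all windows, 3.85% of G2/M windows and 20.6% of S phase windows. Windows with both TTTGAA and CCAAT made up 6.95% of all windows, 51.9% of G2/M windows and 11.8% of S phase windows. A match is a string of letters and was not shown to be bound here. Windows were found for 47 of 54 G2/M genes and 31 of 43 S phase genes, and a gene can have more than 1. Here the rule's own genes were not taken out of the G2/M list. Of the 6 cycling genes of the rule, Birc5 was the exception, with 0 matches of any of the 3 motifs in its window.

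Windows are shown for Cdk1 (chr10:69352863-69353162, minus strand), Top2a (chr11:99024140-99024439, minus strand), Ube2c (chr2:164769679-164769978, plus strand) and Prc1 (chr7:80294201-80294500, plus strand), which choose the cells, and for the replication gene Mcm5 (chr8:75109259-75109558, plus strand) as a contrast. Capitals mark the motifs, also where they stand on the other strand as TTCAAA or ATTGG, and in Ube2c and Mcm5 motifs on opposite strands overlap.
Cdk1: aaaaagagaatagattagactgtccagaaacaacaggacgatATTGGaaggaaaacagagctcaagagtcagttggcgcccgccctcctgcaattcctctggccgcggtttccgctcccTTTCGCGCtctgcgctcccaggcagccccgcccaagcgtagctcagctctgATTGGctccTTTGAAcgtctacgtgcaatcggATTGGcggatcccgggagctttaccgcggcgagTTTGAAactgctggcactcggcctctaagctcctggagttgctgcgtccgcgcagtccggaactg
Top2a: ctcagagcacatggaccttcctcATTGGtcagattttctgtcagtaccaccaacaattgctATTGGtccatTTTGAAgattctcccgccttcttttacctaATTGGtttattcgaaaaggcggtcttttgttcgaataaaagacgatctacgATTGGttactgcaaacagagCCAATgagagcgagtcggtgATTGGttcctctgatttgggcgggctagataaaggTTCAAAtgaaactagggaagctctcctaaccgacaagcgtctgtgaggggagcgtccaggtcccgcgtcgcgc
Ube2c: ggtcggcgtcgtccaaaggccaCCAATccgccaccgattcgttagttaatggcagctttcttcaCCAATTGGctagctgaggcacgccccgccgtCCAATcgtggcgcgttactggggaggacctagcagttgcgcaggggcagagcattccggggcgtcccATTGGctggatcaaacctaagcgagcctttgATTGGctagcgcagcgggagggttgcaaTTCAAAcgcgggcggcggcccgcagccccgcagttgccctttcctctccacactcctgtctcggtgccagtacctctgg
Prc1: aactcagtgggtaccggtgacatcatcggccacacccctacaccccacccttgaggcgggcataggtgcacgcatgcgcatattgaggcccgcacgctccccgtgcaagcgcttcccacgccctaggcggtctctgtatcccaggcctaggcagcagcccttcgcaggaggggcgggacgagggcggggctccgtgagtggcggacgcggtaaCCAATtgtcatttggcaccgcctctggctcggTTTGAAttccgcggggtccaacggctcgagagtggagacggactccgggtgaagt
Mcm5: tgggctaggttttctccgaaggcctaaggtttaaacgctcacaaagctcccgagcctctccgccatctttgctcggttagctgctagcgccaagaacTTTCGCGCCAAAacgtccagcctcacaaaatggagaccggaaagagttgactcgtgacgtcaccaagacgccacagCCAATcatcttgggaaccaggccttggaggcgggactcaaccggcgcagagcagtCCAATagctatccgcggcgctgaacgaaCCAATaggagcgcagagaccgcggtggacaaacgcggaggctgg

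In Cdk1, the kinase that starts mitosis, TTTGAA lay 71 and 15 bases before the start site and an E2F match 131 bases before it. In Top2a, which untangles DNA before chromosomes part, TTTGAA letters lay 179 and 23 bases before the start, among 6 CCAAT boxes. Mcm5, a subunit of the replicative helicase, held no TTTGAA, but E2F letters on both strands 153 and 149 bases before the start. The Cdk1 window was therefore the only 1 of these 5 with all 3 motifs.

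Proliferating chondrocytes made up a larger share of cartilage in the Dach1OE library. They were 18.4% of Control cartilage cells (648 of 3520, exact interval 17.1% to 19.7%) and 21.5% of Dach1OE cartilage cells (1022 of 4757, 20.3% to 22.7%), a difference of 3.08 percentage points (Newcombe interval 1.33 to 4.80). Among unmarked cells the shares were 16.1% and 18.7%, a difference of 2.54 points (0.689 to 4.36). With each cell thinned to 5000 UMIs they were 15.6% and 18.5%, a difference of 2.87 points (1.13 to 4.58), after 311 and 409 shallower cartilage cells were left out. As a share of all kept cells, members were 2.45% and 3.49%.

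The difference was uneven between cells that could be told apart by sex-linked transcripts. In cells with UMIs of Y-linked genes and none of Xist, members were 15.8% of Control cartilage cells and 21.7% of Dach1OE cartilage cells, 5.87 points apart (2.81 to 8.80). In cells with Xist and no Y-linked UMI they were 19.3% and 21.3%, 1.99 points apart (-0.692 to 4.67), so the interval of that difference took in 0. If each library held 1 mouse of either sex, this split is also a split by mouse, and sex and animal cannot be told apart. Of members with transcripts of 1 sex only, 68.3% in Control and 49.2% in Dach1OE carried Xist. UMIs of both kinds were found in 15.0% and 12.1% of the sexed members and in 9.46% and 6.34% of the unmarked ones.

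Where in maturation the cycling cells sat was read from Col10a1, with the limit of the rule lifted. Among unmarked cartilage cells without Col10a1, 18.1% in Control and 19.3% in Dach1OE were cycling. With Col10a1 above 0 and under 0.02% of UMIs the shares were no lower, at 18.2% (89 of 489) and 22.7% (204 of 899). These were 4.49 points apart (-0.0114 to 8.75). Cells of this class were deeper than those without Col10a1, with medians of 11799 and 10910 UMIs against 9794.5 and 9226. Where Col10a1 made up 0.02% to 0.1% of UMIs, 7.39% (13 of 176) and 16.5% (61 of 370) were cycling, 9.10 points apart (3.17 to 14.2). From 0.1% to 1% the shares were 2.92% and 4.62%, from 1% to 5% they were 0.360% and 1.26%, and at 5% or more they were 0 of 154 cells, which allows a share of up to 2.37%, and 0.313%. With marked cells included, the shares were higher and the libraries differed there too, with 5.73% and 10.97% from 0.1% to 1%, 5.24 points apart (1.08 to 9.29), and 1.91% and 6.82% from 1% to 5%, 4.91 points apart (2.18 to 7.61). Among unmarked cells the difference from 0.1% to 1% was 1.70 points (-1.80 to 5.04), and its interval took in 0. Col10a1 UMIs were also found outside cartilage. In endothelial cells without Acan, which should lack the gene, Col10a1 was 54.7 CPM in Control (12.8% of cells, median 2595 UMIs) and 89.2 CPM in Dach1OE (20.6% of cells, median 2608 UMIs). These are levels over summed cells of lower depth, so they cannot be set against the classes per cell above. The source of this Col10a1 and its part in the difference between the libraries were not tested. On thinned cells, marked ones included, the class from 0.02% to 0.1% differed by 6.45 points (0.741 to 11.4) and the class from 0.1% to 1% by 6.08 points (2.45 to 9.72).

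**Figure D2:**
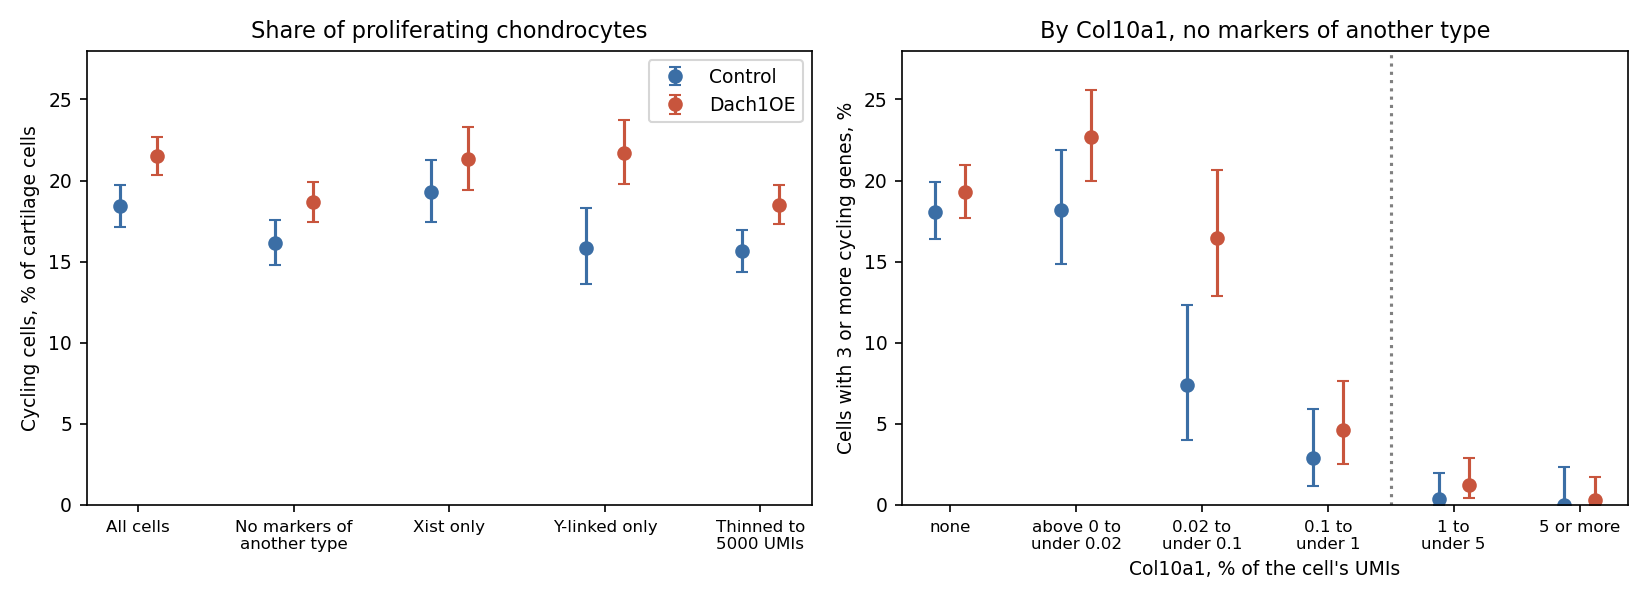
Share of cycling cells among cartilage cells (y axis, %) for Control and Dach1OE in the full set, the unmarked cells, the thinned cells and cells split by sex-linked transcripts, and by the Col10a1 share of a cell's UMIs, with 95% intervals as bars. The Dach1OE share is 21.5% against 18.4%, and the cycling share is under 5% in unmarked cells of both libraries once Col10a1 reaches 0.1%.

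Set against non-cycling cartilage cells of the same library, the dividing cells held less of the prehypertrophic programme and of the dissociation stress genes, and differed less in the cartilage matrix. This contrast is close to the one that chose the cells and is given as a description. Of 11295 genes with enough UMIs in unmarked cells, 1525 (13.5%) were at least 1.5-fold higher and 1169 (10.3%) at least 1.5-fold lower in Control, and 1398 (12.4%) and 1156 (10.2%) in Dach1OE. Over all members and 12234 genes the counts were 1842 higher (15.1%) and 893 lower (7.3%) in Control, and 1865 (15.2%) and 821 (6.71%) in Dach1OE. Scaling by the trimmed mean of M values moved every log2 ratio of the full set down by 0.12 in Control and 0.11 in Dach1OE, which turned the split into 1472 higher and 1323 lower, and 1519 and 1169.

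Of the S phase list, 40 of 42 measured genes were at least 1.5-fold higher in unmarked Control cells and 41 of 42 in Dach1OE, with medians of 3.08 and 3.16 on the log2 scale. All 49 G2/M genes outside the rule were higher in both, with medians of 6.03 and 6.12. These genes were also common per cell. At 5000 UMIs per cell, a UMI of Rrm2, the ribonucleotide reductase subunit made in S phase, was found in 60.6% and 57.8% of unmarked members against 1.84% and 3.16% of unmarked non-cycling cells. For Ccnb1 it was 53% and 49.1% against 1.04% and 0.543% in the same cells. Unthinned Ccnb1 stood at 267 and 270 CPM in unmarked members against 2.82 and 1.65 CPM in non-cycling cells.

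Among genes outside the listed ones, high ratios were also found for the following. Pclaf, a partner of PCNA, was 7.63 and 7.60 higher on the log2 scale in unmarked cells. Esco2, which sets sister chromatid cohesion, was 8.26 and 7.33 higher, and Spc25 and Ska1, which attach chromosomes to the spindle, were 7.36 and 7.40, and 6.79 and 7.49 higher. Sapcd2, which orients the spindle, was found at 73 and 137 UMIs in members and at 0 in unmarked non-cycling Control cells. Of the list of histone variants, 7 of 11 measured genes in Control and 8 of 11 in Dach1OE were at least 1.5-fold higher in unmarked members. Within it, H2afz stood at 1466 and 1526 CPM in members against 138 and 186 CPM in non-cycling cells, and H2afx at 288 and 259 CPM against 29.3 and 30.5 CPM.

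The brakes of the cycle split into those lower and those higher in dividing cells. Cdkn1c (chr7:143458339-143461050, minus strand), encoding p57, was 737 and 768 CPM in unmarked members against 1521 and 1591 CPM in non-cycling cells, a log2 ratio of -1.05 in both libraries. It was still the most abundant of the 10 CDK inhibitors and pocket proteins listed. Cdkn1a, encoding p21, was lower as well (-1.0 and -0.71). The INK4 inhibitors Cdkn2c and Cdkn2d were higher by 2.77 and 3.02, and by 2.62 and 3.0. Rbl1, the pocket protein p107 and itself an E2F target, was higher by 1.44 and 1.59, while Rb1 differed by -0.13 and -0.33. Counted over the list, 4 of 9 measured members were at least 1.5-fold higher and 2 at least 1.5-fold lower in each library.

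The cyclins that answer growth signals behaved unlike the cyclins that run the cycle. Ccne1 was higher by 2.45 and 2.64 on the log2 scale and Ccna2 by 8.54 and 8.23. Ccnd1 was 104 and 139 CPM in unmarked members and 93.3 and 138 CPM in non-cycling cells, and Ccnd2 was 36.9 and 57.4 CPM against 55.9 and 81.5 CPM. Ccnd3 and its partner kinases Cdk4 and Cdk6 differed by under 1.5-fold. Of the transcription factors of the cycle, 8 of 10 measured were at least 1.5-fold higher in each library, among them Foxm1, the activator of mitotic genes (5.53 and 4.68), E2f8 (5.68 and 4.89) and Mybl2 (2.72 and 3.33). Myc was not among them, at 46.8 and 47.2 CPM against 60.7 and 63.2 CPM.

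Ihh (chr1:74945315-74951672, minus strand, GRCm38), which encodes Indian hedgehog, was low in dividing cells. It was 82.0 and 65.9 CPM in unmarked members against 440 and 337 CPM in non-cycling cells, log2 ratios of -2.42 and -2.35. A UMI of Ihh was found in 21.5% and 19.6% of unmarked members and in 53.2% and 45.7% of unmarked non-cycling cells, against 0.785% and 0.884% of endothelial cells without Acan at a lower median depth. At 5000 UMIs per cell the shares in these unmarked cells were 14.7% and 13.8% against 48.9% and 42.5%. Read the other way, 26.3% and 28.3% of cartilage cells without Ihh were cycling, and 9.33% and 11.8% of those with Ihh. The cells with Ihh were the deeper ones (medians of 13020 and 12250.5 UMIs against 9142 and 8808). At 5000 UMIs per cell the cycling shares were 23.3% and 25.4% without Ihh and 5.38% and 7.82% with it.

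Other genes of the way out of the cycle were lower together. Of 12 prehypertrophic genes, 8 in Control and 10 in Dach1OE were at least 1.5-fold lower in unmarked members and 1 and 0 were higher, with medians of -0.87 and -1.09. The 1 higher in Control was Mmp13, and the 10 in Dach1OE take in Mmp13 and Spp1. No common direction is read for these genes below, so the counts do not set the libraries apart. The phosphatase Alpl was 157 and 129 CPM against 503 and 473 CPM. Pth1r, the receptor of parathyroid hormone-related protein, was 497 and 421 CPM against 1250 and 1058 CPM, a log2 ratio of -1.33 in both. The transcription factors Mef2c (-1.11 and -1.22) and Foxa2 (-1.37 in both libraries) were lower too. Of 13 measured cartilage transcription factors, 4 in each library were at least 1.5-fold lower in unmarked members and 0 higher. Their medians were -0.45 and -0.34, with 4 in Control and 3 in Dach1OE above 0. Sgms2, a sphingomyelin synthase of mineralizing cells, was among the lowest of all genes with -2.31 and -2.64. The bone matrix gene Ibsp was lower in unmarked members of both libraries, at 17.0 and 48.8 CPM against 135 and 112 CPM, but endothelial cells without Acan held 17.5 and 15.5 CPM of it, so the Control value of members was at that background. No direction is read for the collagenase Mmp13, at 32.6 and 10.8 CPM in unmarked members against a background of 28.4 and 25.5 CPM, and Spp1 went different ways in the libraries, at 54.5 and 50.2 CPM against 46.2 and 82.1 CPM. All 3 rested on few cells, since the 10 highest unmarked members held between 44.0% and 85.1% of their UMIs. Genes that answer tissue digestion were lower as well. Of 12 dissociation stress genes, 7 in Control and 11 in Dach1OE were at least 1.5-fold lower in unmarked members than in non-cycling cells, with medians of -0.72 and -1.17, and their part in the other differences was not tested.

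Genes of the cartilage matrix differed little. Of 20 genes, 3 in Control and 1 in Dach1OE were at least 1.5-fold lower, none was higher, and the medians were -0.28 and -0.26. Col2a1 was 74222 and 77454 CPM in unmarked members against 86410 and 89758 CPM. Matn1 was the lowest in Control (-0.84, and -0.54 in Dach1OE), whereas Prelp, a leucine-rich proteoglycan, was higher by 0.58 and 0.50. Sox9 was 1178 and 1062 CPM against 1735 and 1559 CPM. Genes of the upper zone were mixed. Of 9 measured, 4 in Control and 6 in Dach1OE were at least 1.5-fold lower in unmarked members and 2 and 0 were higher, with medians of -0.44 and -1.10. Ucma, a matrix protein of that zone and its most abundant gene here, was higher in members by 0.43 and 0.41. Along the number of cycling genes its level was uneven. It was 1044 CPM in unmarked Control cells with none of the 6 genes, 1477 CPM with 5 and 1414 CPM with all 6, and in Dach1OE it was 1368, 2016 and 1837 CPM.

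The signalling lists were mixed. Over all genes in unmarked cells, 13.5% in Control and 12.4% in Dach1OE were at least 1.5-fold higher, and 10.3% and 10.2% lower. A list of 8 or 9 genes with 1 call lies near these shares. In unmarked members, 5 of 12 Wnt genes were at least 1.5-fold lower in each library and 0 higher, and of 16 BMP genes 5 and 4 were lower and 2 and 0 higher. Of 12 IGF genes 5 and 3 were lower and 2 and 1 higher, with 7 above 0 in both libraries, and of 8 FGF genes 1 was lower in each and 1 and 0 higher. Of 9 hedgehog genes 3 were lower and 1 was higher in each. Within the hedgehog list, Gli1, a target gene that reports the signal in the receiving cell, was 29.4 and 40.8 CPM in unmarked members against 17.2 and 20.4 CPM, log2 ratios of 0.77 and 0.99, while the receptor Ptch1 differed by 0.26 and 0.16. The BMP antagonist Nog was 25.3 and 20.4 CPM against 89.7 and 78.0 CPM. Wnt4 was lower by -1.43 and -1.61 and the Wnt antagonist Frzb by -1.75 and -1.37 on the log2 scale. H19 (chr7:142575529-142578143, minus strand), an imprinted long non-coding RNA, was 2950 and 3482 CPM against 1519 and 1891 CPM, while Igf2, from the same imprinted cluster, was at or under 1.43 CPM in members. Fgfr3, a receptor that restrains division in the growth plate, was 669 and 635 CPM against 735 and 726 CPM. Mitochondrially encoded genes made up 7.21% and 7.23% of UMIs in unmarked members and 7.29% in non-cycling cells of both libraries.

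**Figure D3:**
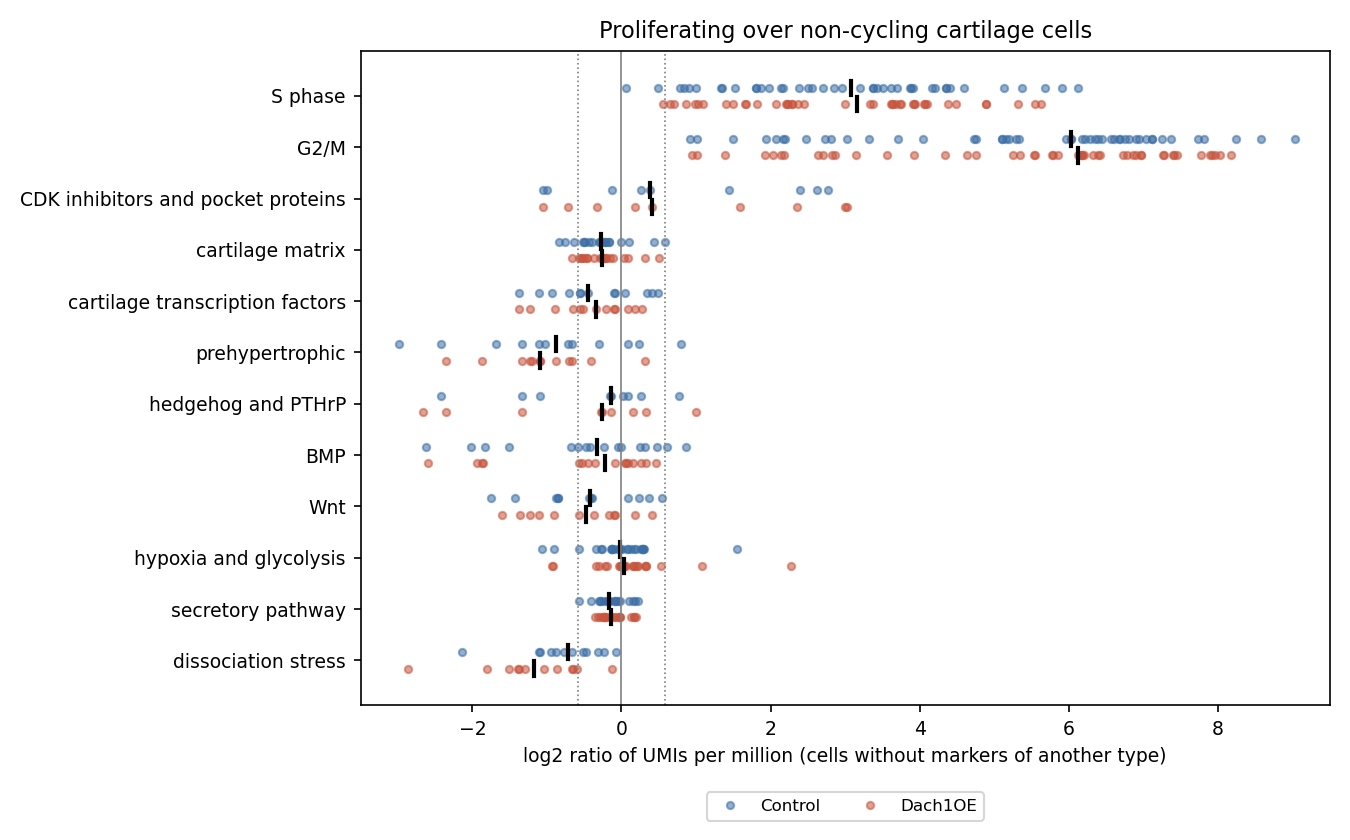
Log2 ratio of CPM, unmarked proliferating chondrocytes over unmarked non-cycling cartilage cells (x axis), for each measured gene (points) of the gene lists (rows) in Control and Dach1OE, with list medians as black bars and dotted lines at 1.5-fold. S phase and G2/M medians lie at 3.08 to 6.12, prehypertrophic genes at -0.87 and -1.09, and cartilage matrix genes at -0.28 and -0.26.

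Dividing cells of other kinds in the same libraries were set beside the chondrocytes. Cycling cells with no more than 1 Acan UMI and markers of a single other type numbered, once cells with marks of a further type were set aside, 257 and 412 endothelial, 86 and 74 osteoblast or stromal, and 319 and 334 blood cells in Control and Dach1OE. Cdkn1c was higher in the chondrocytes than in each of them. Its 737 and 768 CPM stood against 145 and 228 CPM in endothelial, 40.3 and 37.1 CPM in stromal and 3.40 and 17.9 CPM in blood cells. Over endothelial cells, the nearest of these, the log2 ratio was 2.35 (interval 2.14 to 2.57) in Control and 1.75 (1.61 to 1.89) in Dach1OE.

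The D cyclins and their kinases were spread differently. Cdk6 was 117 and 102 CPM in the chondrocytes, 29.6 and 39.7 CPM in endothelial cells, 24.2 and 21.8 CPM in stromal cells and 586 and 575 CPM in blood cells. Without the setting aside of cells with further markers, the endothelial and stromal values were 104 and 118, and 104 and 89.0 CPM, so that the excess of Cdk6 over those types is seen in the unmarked cells alone. Ccnd2 was lower in the chondrocytes (36.9 and 57.4 CPM) than in any other type, where it ran from 119 to 183 CPM. Ccnd3 was 121 and 113 CPM against 300 and 313 CPM in endothelial and 438 and 471 CPM in blood cells. In stromal cells Ccnd3 was 145 and 137 CPM, and the interval of the log2 ratio took in 0 in both libraries (-0.62 to 0.11 and -0.65 to 0.11). Without the setting aside, stromal Ccnd3 was 521 and 403 CPM against 160 and 155 CPM in all members, so that its likeness to stromal cells is seen in the unmarked cells alone. Ccnd1 was 306 and 777 CPM in endothelial cells, 104 and 139 CPM in the chondrocytes, 109 and 118 CPM in stromal cells and 9.08 and 13.7 CPM in blood. Its log2 ratio over stromal cells was -0.06 and 0.24, with intervals that took in 0. Without the setting aside, endothelial Ccnd1 was 158 and 383 CPM, stromal Ccnd1 45.4 and 45.7 CPM and that of all members 99.3 and 149 CPM. Ccna2 was 485 and 466 CPM in the chondrocytes and 414 to 555 CPM elsewhere. The other types were shallower, with medians of 4337 to 5983.5 UMIs against 10844.5 and 10541, and the part of depth in these comparisons was not tested.

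**Figure D4:**
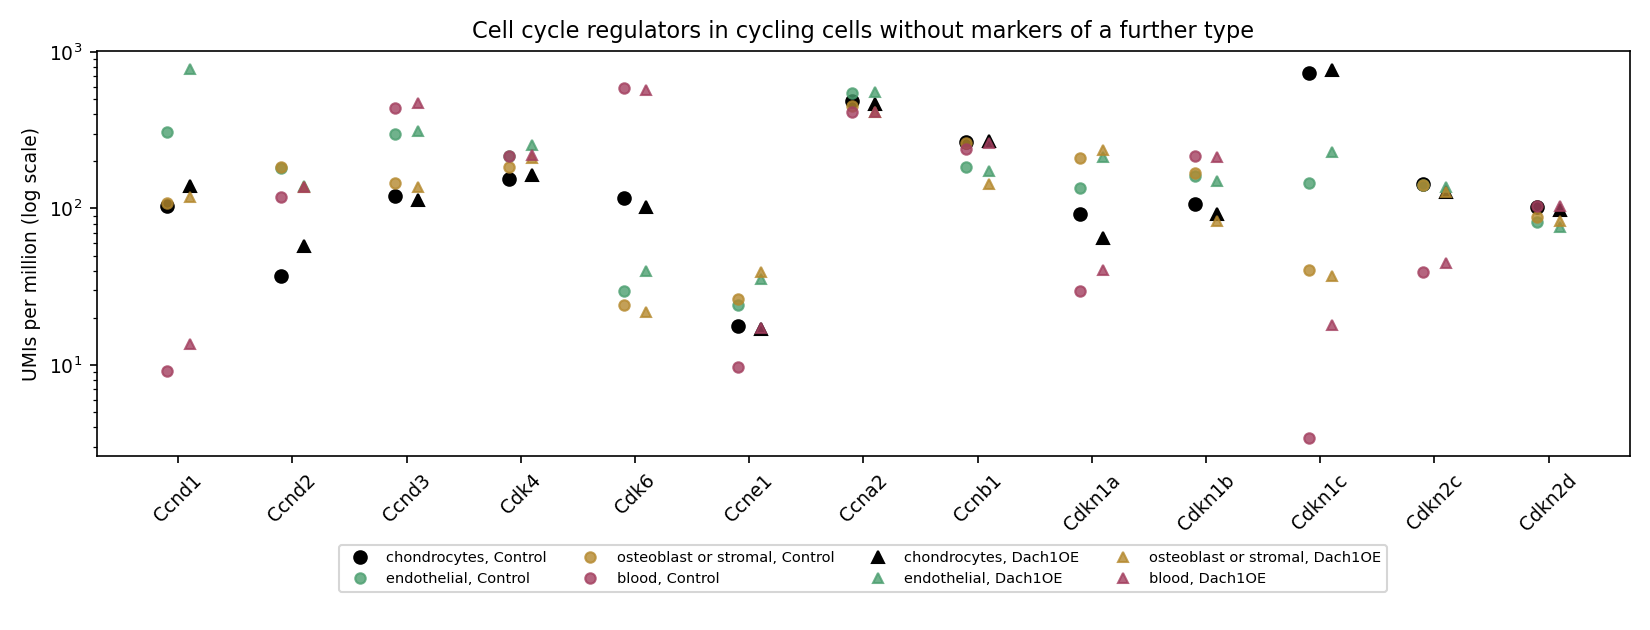
CPM (log axis) of cell cycle regulators in cycling cells, once cells with marks of a further type were set aside: chondrocytes, endothelial, osteoblast or stromal, and blood cells of the Control and Dach1OE libraries. Cdkn1c is highest in chondrocytes at 737 and 768 CPM, Ccnd2 is lowest in them, and Ccna2 lies between 414 and 555 CPM in the other types.

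Between the genotypes, most cell cycle genes of the dividing chondrocytes differed by less than 1.5-fold. Of 11498 genes with at least 50 UMIs over the members of both libraries, 239 (2.08%) were at least 1.5-fold higher in Dach1OE and 425 (3.7%) at least 1.5-fold lower. Among unmarked cells and 10021 genes the counts were 188 (1.88%) and 348 (3.47%). No gene of 43 in the S phase list and none of 49 in the G2/M list outside the rule was past 1.5-fold over all members, and their medians were 0.01 and -0.05. In unmarked cells 1 S phase gene was past 1.5-fold, in the higher direction. Of 11 cyclins and CDKs, 1 was past 1.5-fold in either set, Ccnd1 over all members and Ccnd2 in unmarked ones. Split by sex-linked transcripts, the medians moved in opposite ways. In Xist cells the S phase list stood at 0.20 with 33 of 43 genes above 0, and the G2/M list at -0.15 with 41 of 49 below 0. In cells with Y-linked transcripts they stood at -0.23 with 35 below 0, and at 0.09 with 39 above 0.

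Of the gene lists, the immediate early and stress genes, which cells are known to switch on during tissue digestion, had the largest number past 1.5-fold. Of 12 such genes, 11 were at least 1.5-fold lower in Dach1OE members, against the 3.7% of all genes, with a median of -1.0 on the log2 scale. In unmarked members 11 of 12 were lower, with a median of -1.30. Junb (chr8:84974484-84978718, minus strand), a subunit of AP-1, stood at 250 CPM against 69.5 CPM, Control first, a log2 ratio of -1.85 (-2.0 to -1.70). Egr1 was 382 and 131 CPM (-1.54), Jun 803 and 325 CPM (-1.30), and Atf3 35.6 and 10.1 CPM (-1.82). Fos, the most abundant, was 1477 and 838 CPM (-0.82). Over all members, 11 of the 12 were below 0 in Xist cells and 12 of 12 in Y-linked cells, with Junb at -1.91 and -1.17.

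The same genes were lower in non-cycling Dach1OE cartilage cells, with a median of -0.89 and 8 of 12 past 1.5-fold. Over all cells of both classes, the log2 ratio of members less that of non-cycling cells was -0.48 for Junb (interval -0.60 to -0.36) and -0.16 for Fos (-0.21 to -0.12). For Ier2 and Dnajb1 the interval took in 0 (-0.28 to 0.05 and -0.15 to 0.18). Of the lowest genes of the comparison, Zfp36, which destroys inflammatory mRNAs, was 443 and 119 CPM in unmarked members, and Socs3, a brake on cytokine signalling, was 63.8 and 16.1 CPM. Any difference in digestion or in time to capture between the libraries was not tested.

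Among the regulators of division, the D cyclins Ccnd1 and Ccnd2 were higher in Dach1OE, while Ccnd3 was 121 and 113 CPM in unmarked members. Ccnd1 (chr7:144929931-144939925, minus strand) was 99.3 CPM in Control members and 149 CPM in Dach1OE members, a log2 ratio of 0.59, and 104 and 139 CPM in unmarked members (0.42, interval 0.27 to 0.58). Ccnd2 was 36.9 and 57.4 CPM in unmarked members (0.64, 0.39 to 0.90), and both were higher in cells of either sex. Non-cycling cells showed the same, at 93.3 and 138 CPM for Ccnd1 and 55.9 and 81.5 CPM for Ccnd2. Cdkn1a was 92.2 and 64.5 CPM (-0.51, -0.70 to -0.33), whereas Cdkn1c differed by 0.06 and Cdk1 by -0.08. Ccnd1 in cycling endothelial cells, the targeted type, was 306 and 777 CPM, and what part of the chondrocyte values comes from RNA of such cells was not tested.

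Cartilage matrix genes moved little between the groups. None of 19 was past 1.5-fold in either set, with a median of -0.05. The other cartilage lists were uneven. Of 6 measured genes of the upper zone, 2 were at least 1.5-fold higher and 3 lower over all members, and 1 and 3 in unmarked ones, with a median of -0.43 in the latter. Of the prehypertrophic genes, 3 of 12 were at least 1.5-fold higher and 0 lower over all members, and 1 of 11 was higher and 1 lower in unmarked ones. The 3 were Ibsp, Mmp13 and Spp1, and 10 Dach1OE members held 66.5%, 90.8% and 74.5% of their UMIs. All 3 went opposite ways in Xist cells and Y-linked cells. In unmarked members the higher gene was Ibsp and the lower Mmp13, which rested on few cells there too. No shift of the list is read from these counts. Matn1 was 761 and 960 CPM in unmarked members (0.34, 0.28 to 0.39), and over all cells its ratio in members less that in non-cycling cells was 0.29 (0.24 to 0.34). Ucma was 1403 and 1823 CPM (0.38, 0.34 to 0.42), and the ratio of members less that of non-cycling cells was -0.02 (-0.06 to 0.02). H19 was 2950 and 3482 CPM (0.24). Ihh was 82.0 and 65.9 CPM (-0.31). Col10a1 was 87.7 and 131 CPM (0.58, 0.42 to 0.75) in unmarked members, whose Col10a1 the rule capped at under 1% of UMIs. Col10a1 in endothelial cells without Acan moved along with it, as given above. In the unmarked members, 10 cells held 71.8% and 54.0% of the Col10a1 UMIs.

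Genes of hypoxia and glycolysis differed little between the groups. Of 25 measured in unmarked members, 1 was at least 1.5-fold higher and 0 lower, and 19 were above 0, with a median of 0.10. Over all members, cells with Xist had 13 of 26 above 0 and 13 below, with a median of 0.01 and 3 at least 1.5-fold lower, and cells with Y-linked transcripts had 19 above 0. Eno1 was 358 and 454 CPM and Pgk1 1050 and 1180 CPM. Ndufa4l2, a hypoxia-induced mitochondrial protein outside the list, was 288 and 434 CPM (0.59, 0.50 to 0.68).

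**Figure D5:**
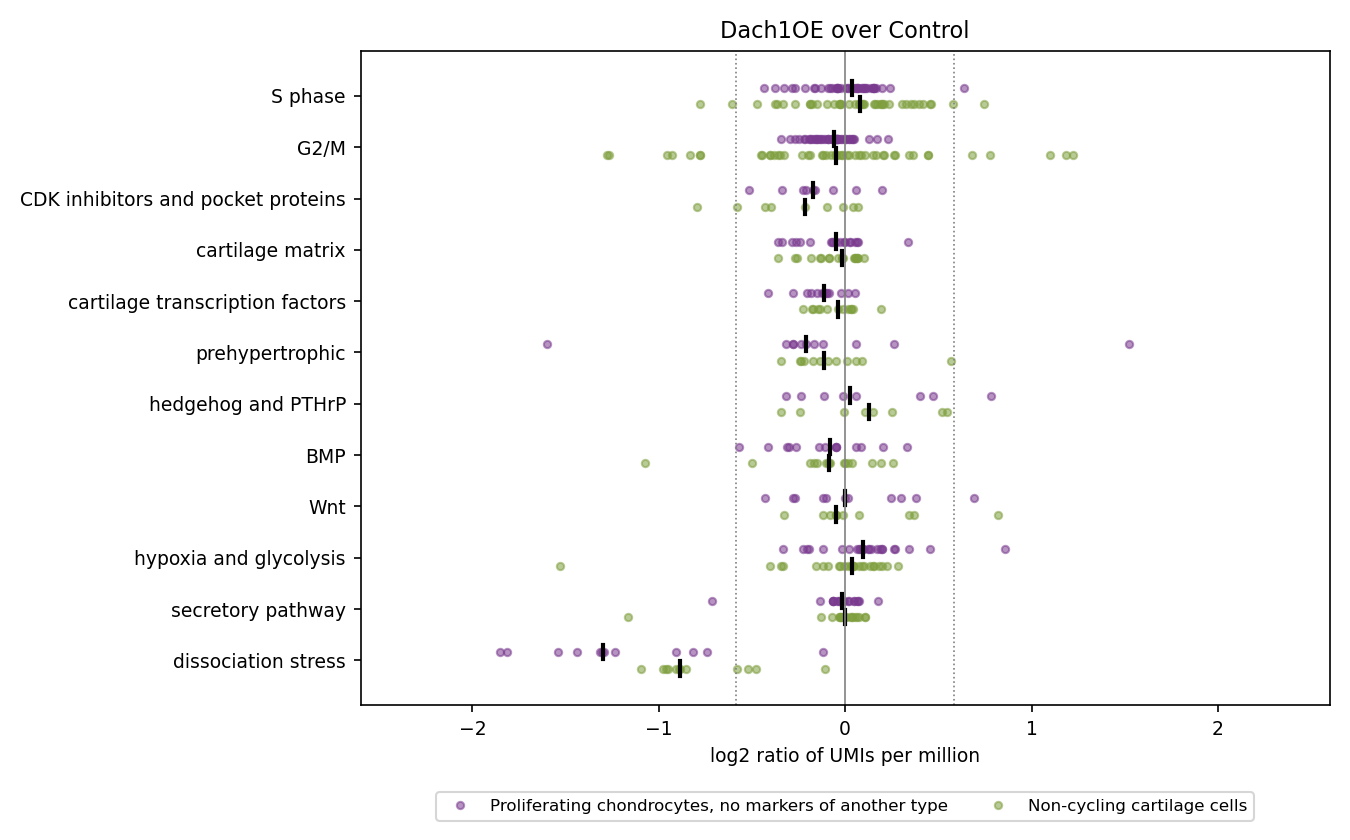
Log2 ratio of CPM, Dach1OE over Control (x axis), for each measured gene (points) of the gene lists (rows) in unmarked proliferating chondrocytes and in non-cycling cartilage cells, with list medians as black bars and dotted lines at 1.5-fold. Dissociation stress genes lie at medians of -1.30 and -0.89, and the S phase, G2/M and cartilage matrix medians lie between -0.06 and 0.08.

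Single genes that led the comparison over all members mostly came from few cells or carried the marks of other types. By a rule on the interval and on both sexes, the 12 highest were Prg2, Scgb3a1, Ace, Rgs5, Gm13305, Gja4, Ccl4, Inhba, Stmn2, Vwf, Hoxb2 and Fzd6. A single Dach1OE cell held 89.6% of the Prg2 UMIs, and 1 cell held 60.8% of those of Inhba. Prg2 is an eosinophil gene, Vwf and Gja4 are endothelial genes, and Gm13305 has near-identical copies, so its count is uncertain. Scgb3a1 was found at 5 UMIs in 4 Control cells and 144 UMIs in 51 Dach1OE cells, and Rgs5, a pericyte marker, at 262 UMIs in 45 cells and 1686 UMIs in 124 cells. The 12 lowest were Prg4, Htra4, Mmp9, Ppbp, Fgl2, Dnase1l3, Car5a, Atf3, Gpm6a, Il13ra2, Socs3 and Zfp36. Here, too, 1 Control cell held 65.6% of Prg4, 80.6% of Mmp9 and 73.8% of Fgl2.

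The same rule on unmarked cells shared 2 of 12 higher and 5 of 12 lower genes with it. The higher ones included Prss34, Rgs5, Adcy3, Lrfn4, Hoxb2, Tesk1, Prss35, P4ha3, Ndufa4l2, Ilvbl and Lgals1. Tesk1, a kinase of the actin cytoskeleton, was counted at 33 UMIs in Control and 130 in Dach1OE (6.68 and 16.9 CPM), spread over 53 and 172 cells of the full set. Prss34 is a gene of basophils and mast cells. P4ha3, a collagen prolyl hydroxylase, was 17.6 and 32.2 CPM. The lower ones included Htra4, Prg4, Zfp36, Junb, Socs3, Cxcl12, Fxyd3, Egr1, Atf3, Fosb and Btg2. Prg4 had a UMI in 2.88% of Control and 2.79% of Dach1OE unmarked members, so its lower sum rested on few cells. Fxyd3, a regulator of the sodium pump, was 294 and 99.8 CPM (-1.56, -1.68 to -1.43) and was seen in 456 of 648 and 438 of 1022 members.

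Dach1 itself was barely present. It gave 35 UMIs in 27 Control members (4.61 CPM) and 93 UMIs in 73 Dach1OE members (7.91 CPM), a log2 ratio of 0.78. In unmarked members it was 16 and 25 UMIs, 3.24 and 3.25 CPM, with an interval of the log2 ratio from -0.96 to 1.0. So the excess in members was seen in those that carried markers of another type, and no difference was detectable at this depth in the other members. Over all non-cycling cartilage cells, marked ones included, the log2 ratio of Dach1 was 1.31. Of unmarked non-cycling cells, 2.34% in Control and 2.93% in Dach1OE held a UMI of it.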

How the data were processed

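Single-cell RNA was captured from femur and tibia with the BD Rhapsody whole transcriptome assay, 1 library per group. The authors deposited counts: a table of cells and genes with molecules per cell after the pipeline's own error correction of UMIs (RSEC). Per the file headers these come from pipeline version 1.11 on GRCm38 with GENCODE vM19 annotation, with intronic reads counted, and the labels name mm10. The tables hold 143986818 and 166999989 UMIs, at 1.51 and 1.45 reads per UMI.

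The study's own limits on cells (500 to 6000 genes, mitochondrial share below 25%) were applied first, and members were taken by the rule given above. UMIs were summed over the cells of a class in each library and divided by the class total (CPM, per 1000000 UMIs). A gene entered a comparison with at least 50 UMIs over both sides, and a call was a change of at least 1.5-fold. Shares have exact Clopper-Pearson intervals, differences of shares Newcombe intervals, and log2 ratios exact conditional binomial intervals, all at 95% and for counting error only. No test was made, since a group is 1 library and cells are not replicates. The members and the gene lists were chosen with earlier results of these data known.

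Beyond the lists, the text names genes past 1.5-fold in Dach1OE over Control with an interval that excludes 0 and the same direction in cells of either sex, sex-linked genes left out, the 12 highest and 12 lowest by the bound nearest 0, and the 10 highest and 10 lowest genes of dividing over non-cycling cells by the smaller of both libraries' ratios. A few genes this rule names are not reported here. No doublet caller was run. Cells with UMIs of at least 3 markers of another cell type were set aside instead, with Sp7 not counted. Thinning drew 5000 UMIs from each cell once. Alternatives were other limits of the rule, other UMI minimums, the trimmed mean of M values, cells of either sex and thinning. The steps were tested on simulated data. Promoter sequences are those of RefSeq on GRCm38.p6. Python 3.11.15, numpy 2.4.6, scipy 1.17.1, matplotlib 3.10.9, R 4.3.3 and edgeR 4.0.16 were used, edgeR for the scaling factors of the counts alone.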

Additional observations from a re-analysis of the deposited data

Results flagged for a closer look

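In 5 of 340 listed or named genes, the difference between Dach1OE and Control members ran in opposite directions in cells with Y-linked transcripts and in cells with Xist, with intervals that exclude 0 on both sides and at least 1 of them past 1.5-fold. The difference between the sexes was not tested, and it may be one between mice. For Mmp13, a collagenase of hypertrophic cartilage, the log2 ratio was 2.38 in Y-linked cells and -1.75 in Xist cells. For Ibsp it was 2.32 and -0.71, and for Spp1 1.26 and -0.64. These are genes of late chondrocytes and osteoblasts that rested on few members. For Mybl2, a transcription factor of the cycle, and the S phase gene Pcna it was -0.69 and 0.71, and -0.64 and 0.39. Over all 340 genes, intervals on opposite sides of 0 were found for 21, of which 7 G2/M genes were higher in Y-linked cells and 4 S phase genes higher in Xist cells.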

How the results depend on the processing

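No paired analysis was possible because each group holds 1 library, and for the same reason no replicate could be left out. The difference in the share of cycling cells lay between 1.99 and 3.73 percentage points under 11 of 12 alternatives, and was 5.87 in cells with Y-linked transcripts. In smaller subsets it was 1.49 (-1.30 to 4.29) in unmarked Xist cells, -0.42 (-6.88 to 5.94) in cells with transcripts of both sexes and 6.07 (1.56 to 10.5) in cells with markers of another type. Of 58 values of the main results under the alternatives, 49 stayed within 1.5 times or within the interval and 9 moved. The counts of genes past 1.5-fold moved with the UMI minimum. In Dach1OE over Control, 47 were higher and 90 lower at 200 UMIs, and 878 and 1509 at 10 UMIs. In dividing over non-cycling cells at 200 UMIs, 1124 were higher and 510 lower in Control, and 1113 and 489 in Dach1OE. The number of genes compared changes with the minimum as well, so these counts alone do not show whether the shares moved.

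Of 4529 values of single genes, 3959 stayed, 551 moved and 19 changed sign. In log2 of Dach1OE over Control, those in Xist cells were Clu (-0.0328), Egln3 (-0.51), Ibsp (-0.71), Mmp13 (-1.75) and Spp1 (-0.64), and in Y-linked cells Angptl4 (0.13) and Spry4 (-0.0270). Leaving out cells with 2 or more markers of another type turned Ace (-0.85), Clu (-1.54), Dach1 (-0.19), Mmp9 (2.06), Prg4 (0.35), Spry4 (-0.53) and Vwf (-0.71). With 3 or more markers these were Clu (-0.14), Mmp13 (-1.60), Mmp9 (1.64) and Spp1 (-0.12), and with 2 cycling genes enough for a member it was Prg2 (-0.53). The cause was not tested. Depth limits genes of few UMIs such as Dach1, and 1 library per group limits every comparison between the genotypes.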
